A study of Mus musculus with 11 samples.

Results

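Notch signalling passes a message between touching cells. A ligand of the Delta or Jagged type on one cell pulls on a Notch receptor on its neighbour, the receptor is cut inside the membrane, and its freed intracellular domain joins the DNA-binding protein RBPJ and Mastermind cofactors to switch on genes such as the Hes and Hey repressors. In mouse muscle stem cells, the Pax7-expressing cells that repair fibres, this pathway is known for keeping the cells quiescent, and loss of Rbpj in them leads to premature differentiation. The 10 genes described here were chosen by name: the receptors Notch1, Notch2 and Notch3, the nuclear mediator Rbpj, the target genes Hes1, Hey1 and Heyl, the related gene Hes6, and the ligands Dll1 and Jag1. They are 10 of the 20640 genes in the table, all 10 are listed, and all 10 reached 1 RPKM (a read count scaled to gene length and library size) in each of the 11 libraries and passed the filter on low values.

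The libraries are bulk RNA-seq of limb muscle stem cells sorted from Pax7-CreERT2;Rosa-YFP mice, in which tamoxifen switches on YFP in cells that express Cre from Pax7 at that time, together with their descendants. All mice received 240 mg/kg tamoxifen orally over 5 days at 12 to 14 weeks of age, and YFP+ cells without Sca-1, CD31 or CD45 were collected. The geriatric mice were over 28 months old, and their cells were gated on VCAM1, an adhesion protein found on quiescent muscle stem cells, as VCAM1-negative (3 libraries), VCAM1-low (2) and VCAM1-high (3). The gates had been drawn on YFP+ cells from the younger mice. The age of this middle-aged group (3 libraries) is given as 10 to 14 months by the sample labels and 12 to 14 months in the extraction protocol, and no VCAM1 gate is named for it. Age, gating and time since labelling therefore change together in every comparison with it and cannot be told apart. Gates are named here as in the titles, while the design text speaks of Low/- and Mid below the high gate. Whether replicates come from different animals, and how many animals gave a library, is not stated, so p-values measure the spread between these samples.

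All 12 muscle stem cell markers reached 1 RPKM in every library. As a check of the gates, Vcam1 was at 122, 70.4 and 48.6 RPKM in the VCAM1-negative libraries, 177 and 115 in VCAM1-low, 418, 188 and 263 in VCAM1-high, and 336, 344 and 230.1 in middle-aged, and Pax7 was between 1.71 and 7.85 RPKM in the 11 libraries. Several libraries stood apart in markers of other cells or states. The 9 myofiber markers summed to 629, 6519 and 5005 RPKM in the VCAM1-negative libraries, against 134 to 285 in middle-aged, and all 9 passed the test as higher there. The 7 markers of differentiating myoblasts summed to 507 RPKM in middle-aged replicate 1, against 10.5 and 10.9 in its other replicates. The 11 endothelial markers summed to 232 RPKM in middle-aged replicate 3 and the 9 macrophage and leukocyte markers to 914 in VCAM1-high replicate 3, each the highest of all libraries. From the low RPKM values the depth was estimated at 20050000 to 29750000 reads per library, so that 1 read of a 1 kb gene is about 0.0499 RPKM at the lowest depth.

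Differences were tested with limma on log2(RPKM + 1) in all 11 libraries and adjusted by the Benjamini-Hochberg method over the 11568 genes that reached 1 RPKM in at least 2 libraries. A gene is said to have risen or fallen where the adjusted p was under 0.05. Errors beside levels are SDs between libraries, and those beside log2 fold changes are the standard errors that limma gives. The clearest differences lay between geriatric and middle-aged cells. Relative to middle-aged cells, Hes1 and Rbpj rose in VCAM1-negative cells and in the mean of the 3 geriatric gates, and Hey1 fell in that mean. The fit took the geriatric libraries as independent, although same-numbered ones deviated together, so errors and p-values of that mean may be too small. The largest difference in size, that of Notch3, did not pass. Between the gates of geriatric cells none of the 10 genes passed.

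**Figure D1:**
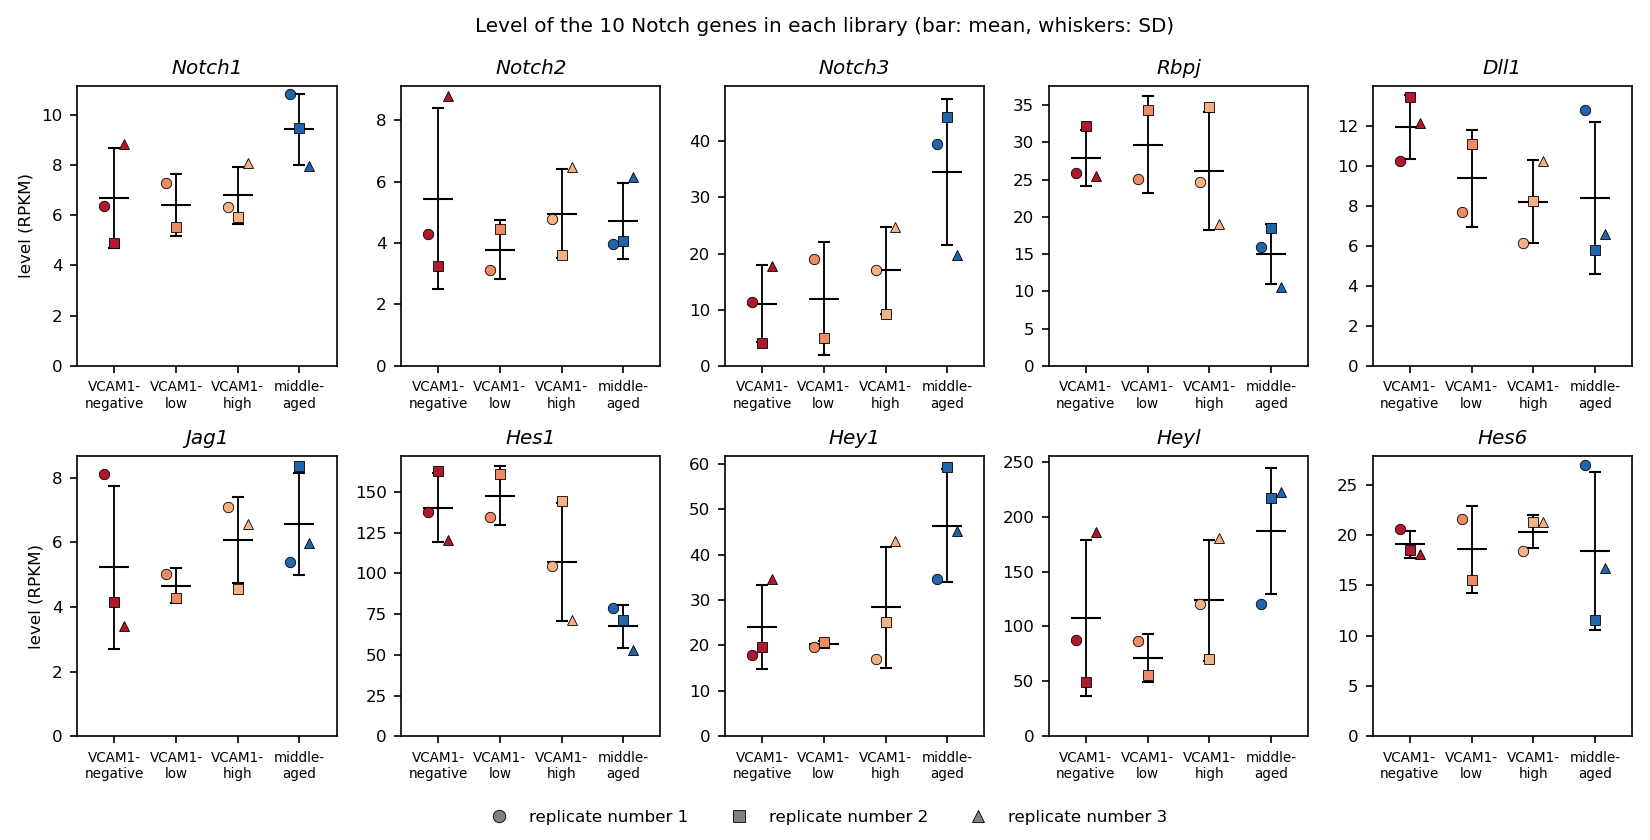
Level in RPKM (vertical axes, each starting at 0) of the 10 genes in the 11 libraries, grouped as VCAM1-negative, VCAM1-low, VCAM1-high and middle-aged; symbols give the replicate number, bars the mean and whiskers the SD. All 8 geriatric libraries lie above the 3 middle-aged libraries for Rbpj, between 19.005 and 34.7 against between 10.6 and 18.5 RPKM, and the VCAM1-negative and middle-aged libraries are fully separated for Hes1, Rbpj, Hey1 and Notch3.

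Among the receptors, Notch3, which in mouse muscle is also made by vascular mural cells, had the widest range of the 10 genes, with 11.1 times between its lowest and highest library. It was at 11.4, 3.98 and 17.7 RPKM in VCAM1-negative libraries, 19.05 and 4.87 in VCAM1-low, 17.1, 9.21 and 24.8 in VCAM1-high, and 39.4, 44.4 and 19.7 in middle-aged. The VCAM1-negative libraries all lay below the middle-aged ones, while the VCAM1-high libraries overlapped them through middle-aged replicate 3. The log2 fold change was -1.68 ± 0.57 for VCAM1-negative against middle-aged (adjusted p = 0.0696, limma), -1.63 ± 0.64 for VCAM1-low (adjusted p = 0.140) and -0.9996 ± 0.57 for VCAM1-high (adjusted p = 0.428), and none passed. Mural cell markers did not move as a class: the 9 of them summed to 152, 80.0 and 127 RPKM in VCAM1-negative libraries against 459, 142 and 330.2 in middle-aged. Acta2 (mean 65.9 in VCAM1-negative and 188 in middle-aged) and Tagln (15.2 and 85.6) made most of these sums. Rgs5, Mcam and Cspg4 also had lower means in VCAM1-negative, whereas Pdgfrb (5.06 and 2.24), Kcnj8 (12.2 and 9.02), Abcc9 and Myh11 had higher ones. In the VCAM1-negative comparison 1 of the 8 tested rose (Abcc9) and 1 fell (Tagln), and none of the 9 was at 0 in any library. Middle-aged replicate 2, the library with the most Notch3, had the lowest mural sum of its group, and the part of mural cells in these values was not tested. In bulk samples fewer cells of a type and less RNA per cell cannot be told apart.

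The Notch3 promoter window is printed because Hes and Hey proteins, the products of the target genes, bind sites of the CACGNG class, and Notch3 is the member whose level ranged most. The window (RefSeq, GRCm38.p6, chr17:32166841-32167140, minus strand, 250 bases before to 50 after the start) has its match in capitals.
Notch3: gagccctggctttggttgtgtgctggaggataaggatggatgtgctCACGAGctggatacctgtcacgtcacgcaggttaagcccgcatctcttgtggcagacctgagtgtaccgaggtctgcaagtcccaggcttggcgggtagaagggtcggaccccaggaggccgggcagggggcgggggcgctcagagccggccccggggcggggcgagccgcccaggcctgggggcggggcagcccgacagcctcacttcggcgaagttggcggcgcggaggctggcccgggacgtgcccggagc
The capitals mark a CACGNG match on the gene's strand whose first base is at -204 from the start. No TGGGAA, the core of the RBPJ motif, was found in it on either strand. Windows were at hand for 7 of the 10 genes, Notch1, Notch2, Notch3, Rbpj, Hes6, Dll1 and Jag1, as 10 windows in all. CACGNG, searched on both strands and overlapping the palindrome CACGTG, occurred in 6 of the 10 windows and in 27.5% of all 32851 RefSeq promoter windows. These matches describe letters in a window and not binding.

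Notch1 and Notch2, the receptors with the best known roles in keeping muscle stem cells quiescent, varied less. Notch1 was at 6.34, 4.90 and 8.83 RPKM in VCAM1-negative libraries, 7.29 and 5.53 in VCAM1-low, 6.33, 5.94 and 8.07 in VCAM1-high, and 10.8, 9.46 and 7.96 in middle-aged. Replicate 3 was the highest of the VCAM1-negative and VCAM1-high libraries and the lowest of the middle-aged ones, and the groups overlapped there. The log2 fold change against middle-aged was -0.46 ± 0.22 in VCAM1-negative (adjusted p = 0.163, limma) and -0.42 ± 0.22 in VCAM1-high (adjusted p = 0.388). Notch2 was at 4.28, 3.25 and 8.79 RPKM in VCAM1-negative libraries, 3.11 and 4.46 in VCAM1-low, 4.77, 3.59 and 6.47 in VCAM1-high, and 3.96, 4.07 and 6.14 in middle-aged. Its groups overlapped in every comparison, and its log2 fold change was 0.10 ± 0.31 for VCAM1-negative against middle-aged (adjusted p = 0.850, limma). Notch4, which is known from endothelium, stayed at or under 1.15 RPKM and was not tested.

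Within a library, the share of each receptor in the summed RPKM of Notch1 to Notch4 does not depend on how libraries are scaled to each other. Notch3 made up 50.6%, 31.3% and 49.7% of this sum in VCAM1-negative libraries, 64.2% and 32.4% in VCAM1-low, 60.1%, 48.5% and 62.0% in VCAM1-high, and 72.4%, 76.4% and 56.4% in middle-aged. The mean share was 43.9 ± 10.9% in VCAM1-negative (n = 3), 48.3 ± 22.5% in VCAM1-low (n = 2), 56.9 ± 7.28% in VCAM1-high (n = 3) and 68.4 ± 10.6% in middle-aged (n = 3). The VCAM1-negative libraries lay below all middle-aged ones, whereas VCAM1-low and VCAM1-high overlapped their neighbours. Notch1 had a mean share of 30.5 ± 7.21% in VCAM1-negative, 30.7 ± 8.61% in VCAM1-low, 24.6 ± 5.89% in VCAM1-high and 19.6 ± 3.24% in middle-aged. The summed receptor level itself ran from 12.7 to 58.1 RPKM. No test was made on these shares, and their number of 2 or 3 per group limits what they show.

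**Figure D2:**
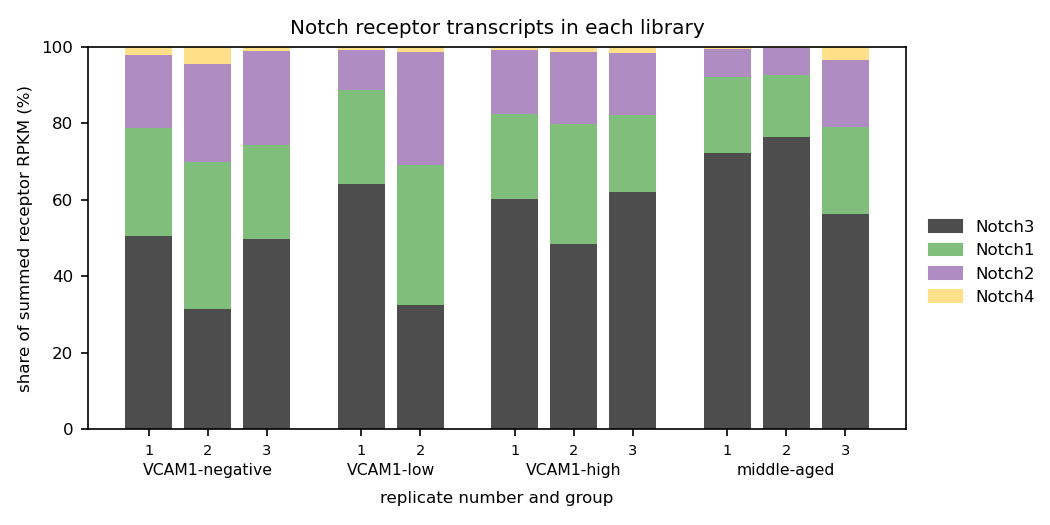
Share of Notch3, Notch1, Notch2 and Notch4 in the summed receptor RPKM (vertical axis, percent) of each of the 11 libraries, ordered by group and replicate number. Notch3 takes 31.3% to 50.6% in VCAM1-negative libraries and 56.4% to 76.4% in middle-aged libraries.

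Rbpj, the DNA-binding protein through which all Notch receptors act, rose in VCAM1-negative cells relative to middle-aged cells. It was at 25.9, 32.2 and 25.5 RPKM in VCAM1-negative libraries, 25.1 and 34.4 in VCAM1-low, 24.7, 34.7 and 19.005 in VCAM1-high, and 15.9, 18.5 and 10.6 in middle-aged. Every geriatric library lay above every middle-aged one, where 14% of all genes separated these groups. This held also for the VCAM1-low and VCAM1-high libraries, in which the myofiber markers summed to 48.6 to 145 RPKM, against 134 to 285 in middle-aged. The part of the higher myofiber sums in the VCAM1-negative values of Rbpj and of the genes below was not tested. The log2 fold change was 0.88 ± 0.26 for VCAM1-negative against middle-aged (adjusted p = 0.0455, limma) and 0.86 ± 0.22 for the mean of the 3 gates (adjusted p = 0.0249, limma). It was 0.96 ± 0.29 for VCAM1-low (adjusted p = 0.0782) and 0.75 ± 0.26 for VCAM1-high (adjusted p = 0.212), and these did not pass. The VCAM1-negative call rested on few libraries: it stayed with an adjusted p of 0.0343 without VCAM1-high replicate 3, 0.0357 without VCAM1-high replicate 2 and 0.0496 without middle-aged replicate 2. Leaving out any of the other 8 libraries gave 0.0516 to 0.155, with log2 fold changes of 0.66 to 1.04 over all 11 omissions. VCAM1-high and VCAM1-low libraries are outside this comparison, so omitting them can alter its adjusted p but not its fold change. The call in the mean of gates was lost without middle-aged replicate 1 (adjusted p = 0.071), middle-aged replicate 3 (0.110) or VCAM1-low replicate 2 (0.067). The pseudogenes Rbpj-ps1 and Rbpj-ps3 are annotated in GENCODE M21 but are no rows of the table, so reads shared with them make the level uncertain.

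The Rbpj promoter window is shown because Rbpj was the 1 gene of the 7 whose windows held the RBPJ core motif, TGGGAA, searched on both strands (RefSeq, GRCm38.p6, chr5:53590096-53590395, plus strand).
Rbpj: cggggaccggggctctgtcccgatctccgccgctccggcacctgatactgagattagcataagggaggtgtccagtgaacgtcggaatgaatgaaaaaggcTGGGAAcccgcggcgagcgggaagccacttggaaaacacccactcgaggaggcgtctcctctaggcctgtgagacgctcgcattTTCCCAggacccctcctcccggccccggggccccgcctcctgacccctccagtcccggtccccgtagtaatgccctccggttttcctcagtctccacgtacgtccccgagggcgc
The capitals mark TGGGAA on the gene's strand with its first base at -149 and its reverse complement, TTCCCA, at -65 from the start. A second RefSeq start of Rbpj has an overlapping window that holds the same TTCCCA. The core is short, and 25.6% of all 32851 promoter windows hold it, so a match is a description of the letters.

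The 3 target genes did not move together. Hes1, a repressor that Notch induces in many tissues, rose in VCAM1-negative cells and in the mean of gates. Of Hey1 and Heyl, related repressors that mouse muscle stem cells need to stay quiescent, Hey1 fell in the mean of gates and Heyl passed in no comparison. Hes1 was at 138, 163 and 121 RPKM in VCAM1-negative libraries, 135 and 161 in VCAM1-low, 105, 144 and 71.7 in VCAM1-high, and 78.6, 71.3 and 53.0 in middle-aged. The VCAM1-negative and VCAM1-low libraries all lay above the middle-aged ones, and VCAM1-high replicate 3 lay within the middle-aged range. The mean was 140.5 ± 21.2 RPKM in VCAM1-negative (n = 3), 148 ± 18.3 in VCAM1-low (n = 2), 107 ± 36.4 in VCAM1-high (n = 3) and 67.6 ± 13.2 in middle-aged (n = 3). The log2 fold change was 1.05 ± 0.26 for VCAM1-negative against middle-aged (adjusted p = 0.0254, limma) and 0.93 ± 0.21 for the mean of the 3 gates (adjusted p = 0.0183, limma). It was 1.13 ± 0.29 for VCAM1-low (adjusted p = 0.0509) and 0.62 ± 0.26 for VCAM1-high (adjusted p = 0.293). The VCAM1-negative call held in 9 of 11 omissions of 1 library and was lost without middle-aged replicate 3 (adjusted p = 0.0758) or VCAM1-negative replicate 2 (0.0983). Omitting a VCAM1-high or VCAM1-low library can alter the adjusted p of this comparison but not its fold change. The call in the mean of gates was lost without middle-aged replicate 3 (0.0816) or VCAM1-low replicate 2 (0.0501). Of the 12 stem cell markers, 1 rose in VCAM1-negative cells, the myogenic factor Myod1, and 4 fell, Vcam1, Itga7, Calcr and Ncam1 (7.06% and 7.38% of all genes). The level of Myod1 was not higher in that gate alone. Its mean was 670 RPKM in VCAM1-negative, 635 in VCAM1-low and 450 in VCAM1-high, against 185 in middle-aged.

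Hey1 was at 17.8, 19.7 and 34.5 RPKM in VCAM1-negative libraries, 19.7 and 20.7 in VCAM1-low, 17.0, 25.1 and 43.1 in VCAM1-high, and 34.6, 59.3 and 45.1 in middle-aged. The VCAM1-negative and middle-aged libraries were separated by little, since VCAM1-negative replicate 3 lay just under middle-aged replicate 1. Hey1 fell in the mean of the 3 gates against middle-aged, with a log2 fold change of -0.94 ± 0.28 (adjusted p = 0.0460, limma). This call held without VCAM1-high replicate 3 (0.0149) or VCAM1-negative replicate 3 (0.0316), and leaving out each of the other 9 libraries gave an adjusted p of 0.0536 to 0.152. Same-numbered geriatric libraries deviated together (correlations of 0.40 to 0.58). For the mean of gates the fit ignored this, so its error and p-value may be too small. For VCAM1-negative alone the log2 fold change was -0.95 ± 0.34 (adjusted p = 0.0810), for VCAM1-low it was -1.12 ± 0.38 (adjusted p = 0.101), and for VCAM1-high it was -0.75 ± 0.34 (adjusted p = 0.333). Heyl was at 87.5, 49.2 and 186 RPKM in VCAM1-negative libraries, 86.6 and 56.0 in VCAM1-low, 120.5, 70.4 and 181 in VCAM1-high, and 120.3, 217 and 223 in middle-aged. VCAM1-negative replicate 3 and VCAM1-high replicates 1 and 3 lay above middle-aged replicate 1, and both VCAM1-low libraries lay below every middle-aged one. Its log2 fold change was -0.94 ± 0.47 for VCAM1-negative (adjusted p = 0.182, limma), -1.36 ± 0.53 for VCAM1-low (adjusted p = 0.138), -0.64 ± 0.47 for VCAM1-high (adjusted p = 0.546) and -0.98 ± 0.39 for the mean of gates (adjusted p = 0.108). The 11 endothelial markers, listed because endothelium also makes Hey1, summed to 38.4 to 108 RPKM in VCAM1-negative and 22.5 to 232 in middle-aged libraries. None of the 10 endothelial markers tested passed and none of the 11 was at 0 in any library; middle-aged replicate 2, with the most Hey1, had an endothelial sum of 29.4 RPKM, and the part of endothelial cells was not tested.

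The ratio of Hes1 to Hey1 within each library put these levels side by side, a description chosen after the values were seen. It was 7.74, 8.29 and 3.49 in VCAM1-negative libraries, 6.84 and 7.75 in VCAM1-low, 6.16, 5.75 and 1.67 in VCAM1-high, and 2.27, 1.20 and 1.18 in middle-aged. VCAM1-negative and VCAM1-low libraries lay above all middle-aged ones, and VCAM1-high replicate 3 lay inside the middle-aged range. Across the 11 libraries log2 Hes1 and log2 Heyl ran in opposite directions (Pearson r = -0.87), Rbpj ran with Hes1 (r = 0.95) and Notch1 with Notch3 (r = 0.93). Over the 8 geriatric libraries alone these values were -0.84, 0.89 and 0.88. They describe libraries that share groups and replicate numbers.

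Hes6, which differs from the other Hes genes in that its product opposes HES1 and favours myogenic differentiation, was at 20.6, 18.5 and 18.1 RPKM in VCAM1-negative libraries, 21.6 and 15.5 in VCAM1-low, 18.5, 21.2 and 21.3 in VCAM1-high, and 27.0, 11.5 and 16.7 in middle-aged. The middle-aged libraries spanned all geriatric ones, and the log2 fold change of VCAM1-negative against middle-aged was 0.13 ± 0.26 (adjusted p = 0.758, limma). The highest value came from middle-aged replicate 1, the library with 507 RPKM of differentiating myoblast markers, whose part in it was not tested.

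Of the ligands, Dll1, which activates Notch on neighbouring cells and in mouse muscle is known from committed myogenic cells, was at 10.2, 13.4 and 12.2 RPKM in VCAM1-negative libraries, 7.67 and 11.1 in VCAM1-low, 6.14, 8.24 and 10.3 in VCAM1-high, and 12.8, 5.79 and 6.59 in middle-aged. The VCAM1-negative libraries overlapped VCAM1-high by little, with the lowest of them at 10.2 and the highest VCAM1-high library at 10.3. Middle-aged replicate 1, rich in differentiating myoblast markers, again stood above the rest of its group, and the part of those markers was not tested. The log2 fold change of VCAM1-negative was 0.51 ± 0.28 against VCAM1-high (adjusted p = 0.831, limma) and 0.53 ± 0.28 against middle-aged (adjusted p = 0.204). Jag1, a ligand of the Jagged type, was at 8.11, 4.17 and 3.40 RPKM in VCAM1-negative libraries, 5.03 and 4.27 in VCAM1-low, 7.10, 4.56 and 6.55 in VCAM1-high, and 5.38, 8.37 and 5.98 in middle-aged. Here VCAM1-negative replicate 1 was nearly as high as the highest middle-aged library while its other replicates were the lowest of all, and the log2 fold change against middle-aged was -0.34 ± 0.28 (adjusted p = 0.412, limma).

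In VCAM1-negative against middle-aged cells, then, 2 of the 10 genes rose and none fell, where 14.4% of all 11568 genes tested passed (7.06% higher and 7.38% lower). The median log2 fold change of the 10 genes was -0.12, against -0.02 over all genes. Libraries of the 2 groups did not overlap for 4 of the 10, where 39% of all genes were separated in this way. For the mean of the 3 gates 2 genes rose and 1 fell, against 15.8% of all genes. Counts of 2 and 3 in 10 are close to these shares and show nothing particular to the 10 genes. In VCAM1-low against middle-aged none passed, against 4.11% of all genes (2.22% higher and 1.88% lower). At an unadjusted p under 0.05 there were 2 higher and 3 lower, against 26.4% of all genes. Libraries did not overlap there for 7 of the 10, Hes1 and Rbpj above and Notch1, Notch3, Hey1, Heyl and Jag1 below, where 44.8% of all genes did so with 2 libraries against 3.

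**Figure D3:**
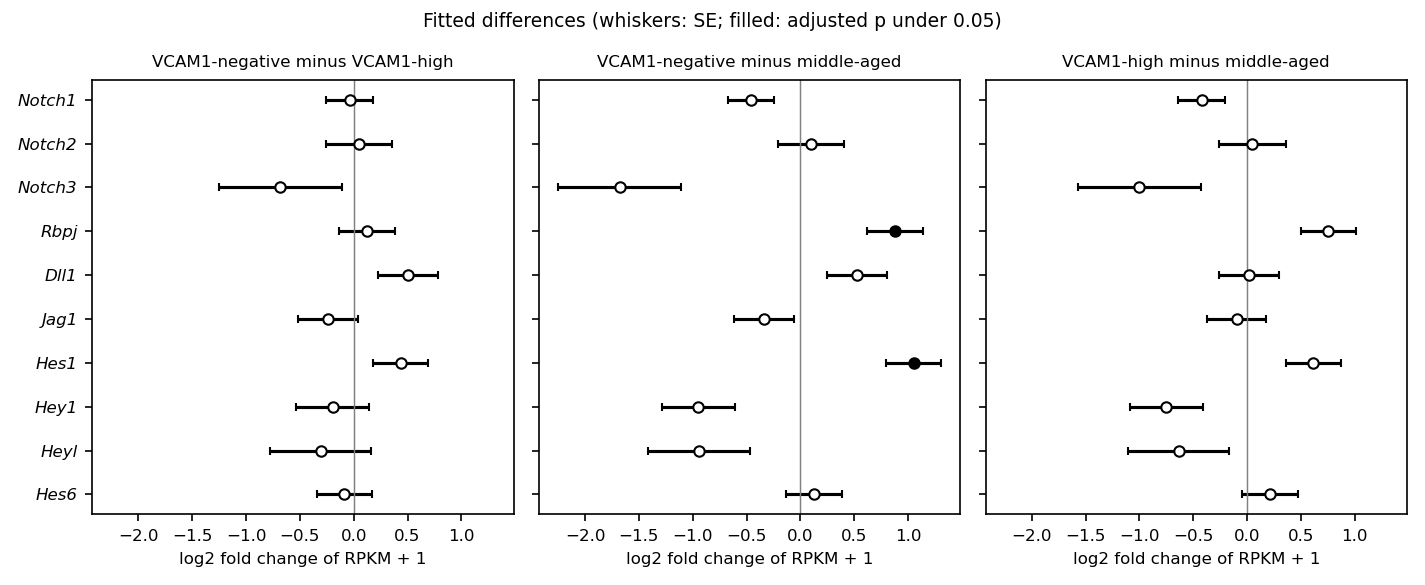
Log2 fold change of RPKM + 1 (horizontal axes) of the 10 genes for VCAM1-negative minus VCAM1-high, VCAM1-negative minus middle-aged and VCAM1-high minus middle-aged; points are fitted values, whiskers standard errors, and filled points have an adjusted p under 0.05. The filled points are Hes1 at 1.05 and Rbpj at 0.88, both for VCAM1-negative minus middle-aged, and Notch3 lies furthest to the left at -1.68.

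VCAM1-high and middle-aged libraries overlapped in Vcam1 level. None of the 10 genes passed, against 0.605% of all genes, and at an unadjusted p under 0.05 there were 2 higher and 1 lower, against 14.9% of all genes. The 3 VCAM1-high libraries lay above the middle-aged ones for Rbpj alone, where 20.2% of all genes did not overlap. Deviations of same-numbered libraries of these groups correlated at 0.21, 0.33 and 0.55, but VCAM1-high replicate 1 correlated better with middle-aged replicate 2 (0.33). Pairing by number is therefore uncertain here. With the replicate number as a block, Rbpj (log2 fold change 0.75 ± 0.14, adjusted p = 0.0228, limma) and Hes1 (0.62 ± 0.15, adjusted p = 0.0469) rose, where 6.98% of all genes passed. Neither passed in that fit without middle-aged replicate 2, VCAM1-high replicate 1 or VCAM1-high replicate 2. In the same blocked fit 31.6% of all genes passed for VCAM1-negative, 15.8% for VCAM1-low and 30.9% for the mean of gates, groups whose numbers do not all pair with the middle-aged ones. This fit gives every group the same number effects, so the VCAM1-high errors also rest on groups that did not pair. The comparisons of the gates with middle-aged cells share the same 3 middle-aged libraries, so their values are not independent of each other.

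Between VCAM1-negative and VCAM1-high cells of geriatric mice none of the 10 genes passed, and no gene of the 11568 did (0%; with libraries rescaled to an equal sum 12 genes were higher and 1 lower, and by median ratios 15 and 1, with none of the 10 among them). At an unadjusted p under 0.05 there were none of the 10 genes and 6.53% of all genes. The largest differences were -0.68 ± 0.57 for Notch3, 0.51 ± 0.28 for Dll1, 0.44 ± 0.26 for Hes1 and -0.31 ± 0.47 for Heyl on the log2 scale. The other comparisons between gates gave no call either, and 2.91% of all genes had an unadjusted p under 0.05 for VCAM1-low against VCAM1-high and 1.88% for VCAM1-negative against VCAM1-low. None of the 10 separated the VCAM1-negative from the VCAM1-high libraries, as 11.4% of all genes did. Same-numbered libraries deviated together here. When the replicate number was fitted as a block to the geriatric libraries alone, 4.42% of 11325 genes passed and still none of the 10, with an adjusted p of 0.06997 for Dll1, 0.0799 for Notch3, 0.0932 for Hes1 and 0.216 for Heyl (limma). With the block fitted in all 11 libraries none of the 10 passed either (0.562% of all genes). In the geriatric fit 2 of the 10 passed without VCAM1-high replicate 3, where 7.19% of all genes did, 3 passed without VCAM1-negative replicate 3, where 7.99% did, and none passed without any of the other 6 libraries. Within every replicate number Hes1 and Dll1 stepped up along VCAM1-high, VCAM1-low and VCAM1-negative, as 2.98% of all genes did, and none of the 10 stepped down, as 10.3% did.

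For 6 of the 10 genes the geriatric libraries kept the same order of replicate numbers in each gate. Notch1, Notch3 and Heyl ranked number 3 above 1 above 2 in each gate that has them, Hey1 ranked 3 above 2 above 1, and Rbpj and Hes1 ranked 2 above 1 above 3, whereas 31.7% of all genes kept 1 order in all gates. A test of the number in the 8 libraries, added after the values were seen, passed for 6 of the 10 genes, against 29.6% of all genes (limma F test). The adjusted p was 0.00393 for Heyl, 0.00535 for Notch3, 0.00803 for Hey1, 0.0278 for Hes1, 0.0340 for Rbpj and 0.0472 for Notch1. Number 2, with the lowest Notch3 and Heyl, also had the lowest Pax7 in each gate, at 1.71 RPKM in VCAM1-negative, 1.97 in VCAM1-low and 3.94 in VCAM1-high. With the middle-aged libraries included, the number passed for Rbpj alone (adjusted p = 0.0446), against 9.27% of all genes. What a replicate number stands for is not given in the labels.

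**Figure D4:**
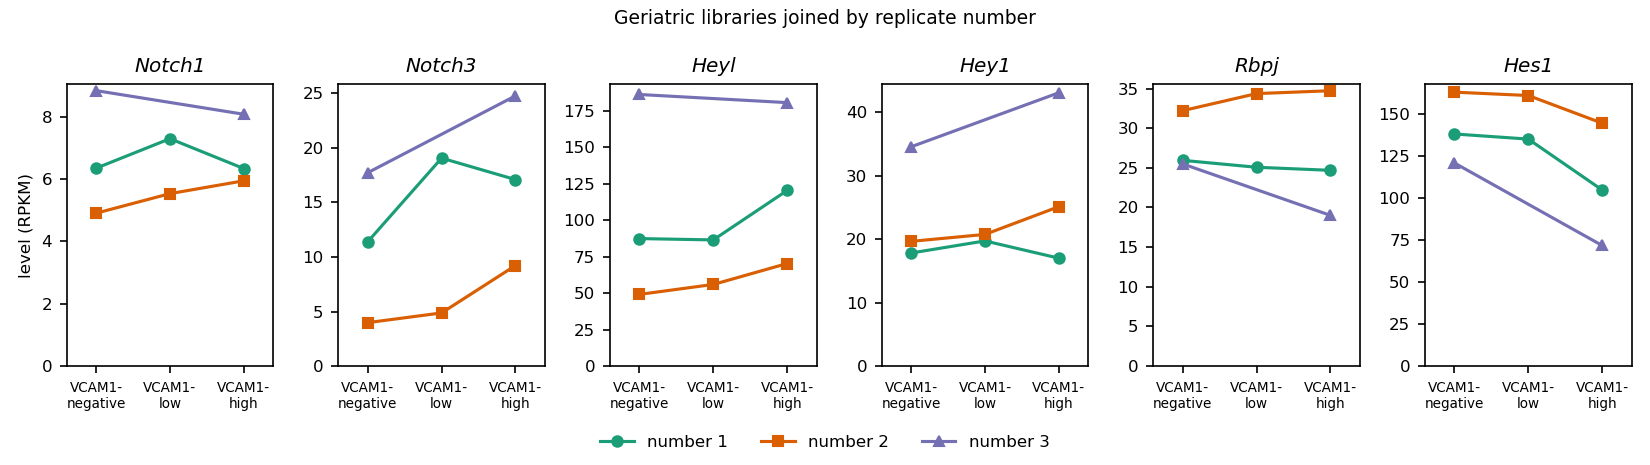
Level in RPKM (vertical axes, starting at 0) of Notch1, Notch3, Heyl, Hey1, Rbpj and Hes1 in the geriatric libraries, ordered VCAM1-negative, VCAM1-low and VCAM1-high, with lines joining libraries of the same replicate number; number 3 has no VCAM1-low library. The order of the numbers is the same in each gate for all 6 genes, and number 2 is lowest for Notch3, between 3.98 and 9.21 RPKM, and highest for Hes1, between 144 and 163 RPKM.

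Other genes of the pathway were read from a list of 69 in 9 role groups, all in the table, of which 59 passed the filter on low values. The list and its groups were drawn up with earlier results of these data known, so counts within them are a description. In VCAM1-negative against middle-aged cells 1 of the 59 rose and 9 fell (7.06% and 7.38% of all genes), and the median log2 fold change was -0.13 against -0.02 over all genes. Of the 9 that fell, 5 belong to a group of 7 genes tied to Notch in muscle stem cells by earlier work in mice, the collagen genes Col5a1, Col5a3, Col6a1 and Col6a2, the calcitonin receptor gene Calcr, Megf10 and Sdc3. In mice collagen V made under Notch control signals through the calcitonin receptor to hold the cells in quiescence. None of the 7 rose, and their median log2 fold change was -1.38. Col5a3 was at 5.06, 2.01 and 11.1 RPKM in VCAM1-negative libraries, 5.17 and 2.88 in VCAM1-low, 9.86, 5.45 and 25.7 in VCAM1-high, and 25.3, 33.7 and 29.9 in middle-aged, a log2 fold change of -2.33 ± 0.54 for VCAM1-negative (adjusted p = 0.0215, limma). Every VCAM1-negative and VCAM1-low library lay below the middle-aged ones. The log2 fold change of Col6a1 was -2.19 ± 0.59 (adjusted p = 0.0350), that of Col6a2 -2.13 ± 0.62 (0.0438), that of Col5a1 -1.38 ± 0.37 (0.0338) and that of Calcr -1.001 ± 0.27 (0.0349). These calls rested on single libraries: of the 7, none fell without middle-aged replicate 2, middle-aged replicate 3 or VCAM1-negative replicate 2, 1 fell without middle-aged replicate 1 or VCAM1-negative replicate 1, and 4 or 5 fell without any of the other 6. With no filter on low values none of the 7 fell, and 1 of the 69 pathway genes did. Fibro-adipogenic cells also make these collagens: their 7 markers summed to 504 to 866 RPKM in VCAM1-negative and 178 to 861 in middle-aged libraries. Of these, 1 rose, Dcn (mean 648 in VCAM1-negative, where it made most of the sum, and 187 in middle-aged). The 2 that fell were Dpt (27.1 and 212) and Col15a1 (0.581 and 4.61). None of the 7 was at 0 in any library, and the part of these cells was not tested.

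The other genes that fell in this comparison were Poglut1, Aph1a, Dtx4 and Dlk1. Poglut1, which adds glucose to the receptor, was at 10.0, 6.61 and 11.6 RPKM in VCAM1-negative libraries, 9.17 and 7.27 in VCAM1-low, 14.2, 10.7 and 15.7 in VCAM1-high, and 22.6, 17.6 and 17.0 in middle-aged (log2 fold change -0.97 ± 0.23, adjusted p = 0.0230, limma). All 8 geriatric libraries lay below the middle-aged ones. Aph1a, a subunit of the gamma-secretase that cuts the receptor, fell with -0.93 ± 0.22 (adjusted p = 0.0243), Dtx4, a ubiquitin ligase of receptor traffic, with -1.004 ± 0.26 (0.0305), and Dlk1, a ligand-like protein that is low in these cells, with -1.02 ± 0.28 (0.0380). Maml3, a Mastermind cofactor of RBPJ, rose with 0.83 ± 0.23 (adjusted p = 0.0367), at 1.956, 2.15 and 3.53 RPKM in VCAM1-negative libraries against 0.657, 1.05 and 1.20 in middle-aged. Over the whole list none of the 59 passed without VCAM1-negative replicate 2, 1 passed without middle-aged replicate 1 or 3, 4 without middle-aged replicate 2 and 5 without VCAM1-negative replicate 1.

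The most abundant gene of most role groups did not pass in that comparison. Its log2 fold change was 0.52 for Snw1 among the nuclear cofactors (adjusted p = 0.0885, limma), -0.65 for Tle5 among the corepressors (0.185), -0.54 for Ncstn among the cleavage genes (0.0519), -0.52 for Rfng in glycosylation (0.152), -0.28 for Mib2 among the ligand ubiquitin ligases (0.532), 0.11 for Dtx3 in receptor turnover (0.736) and -0.34 for the feedback inhibitor Nrarp (0.453). For the mean of the 3 gates 3 of the 59 rose, Aph1c, Maml3 and Dtx3l, and 8 fell, which are the genes that fell above without Dlk1, against 8.04% and 7.81% of all genes. In that comparison 1 of the 59 passed without middle-aged replicate 1 or 3, 3 without VCAM1-low replicate 2 and 6 of 58 without middle-aged replicate 2. In VCAM1-low against middle-aged Poglut1 (adjusted p = 0.03885, limma), Col5a3 (0.03885) and Col6a1 (0.0476) fell. None of the pathway genes passed there without any 1 middle-aged or VCAM1-low library, VCAM1-high replicate 1 or VCAM1-negative replicate 1, and 4 to 8 fell without any of the other 4 libraries. None of the 59 passed for VCAM1-high against middle-aged, but with the replicate number as a block Dtx3l rose (adjusted p = 0.0491, limma) and Col6a1 (0.0216), Col6a2 (0.0274) and Col5a1 (0.0396) fell, against 4.17% and 2.81% of all genes. Of these blocked calls none was left without VCAM1-high replicate 1 or 2, and 1 gene fell and none rose without middle-aged replicate 2 or either VCAM1-low library. Without middle-aged replicate 3, 7 fell and 1 rose. Between VCAM1-negative and VCAM1-high none passed without the block. With it, in the 8 geriatric libraries, 6 of 58 fell and none rose, against 3.43% and 0.98% of all genes. With the block fitted in all 11 libraries none of the 59 passed. The 6 were Col5a3 (log2 fold change -1.03 ± 0.13, adjusted p = 0.0135), Dlk1 (-1.19 ± 0.18, 0.0195), Col5a1 (0.0338), Col6a2 (0.0442), Col6a1 (0.0461) and Aph1a (0.0478). Of the 58, none fell without VCAM1-high replicate 2, VCAM1-low replicate 1 or 2, or VCAM1-negative replicate 2, 1 fell without VCAM1-high replicate 1 and 3 without VCAM1-negative replicate 1. Without VCAM1-high replicate 3, 5 rose and 3 fell, and without VCAM1-negative replicate 3, 5 rose and 4 fell. Dlk1 was at 0.732, 0.564 and 0.611 RPKM in VCAM1-negative libraries, against 2.44, 2.02 and 3.95 in VCAM1-high.

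**Figure D5:**
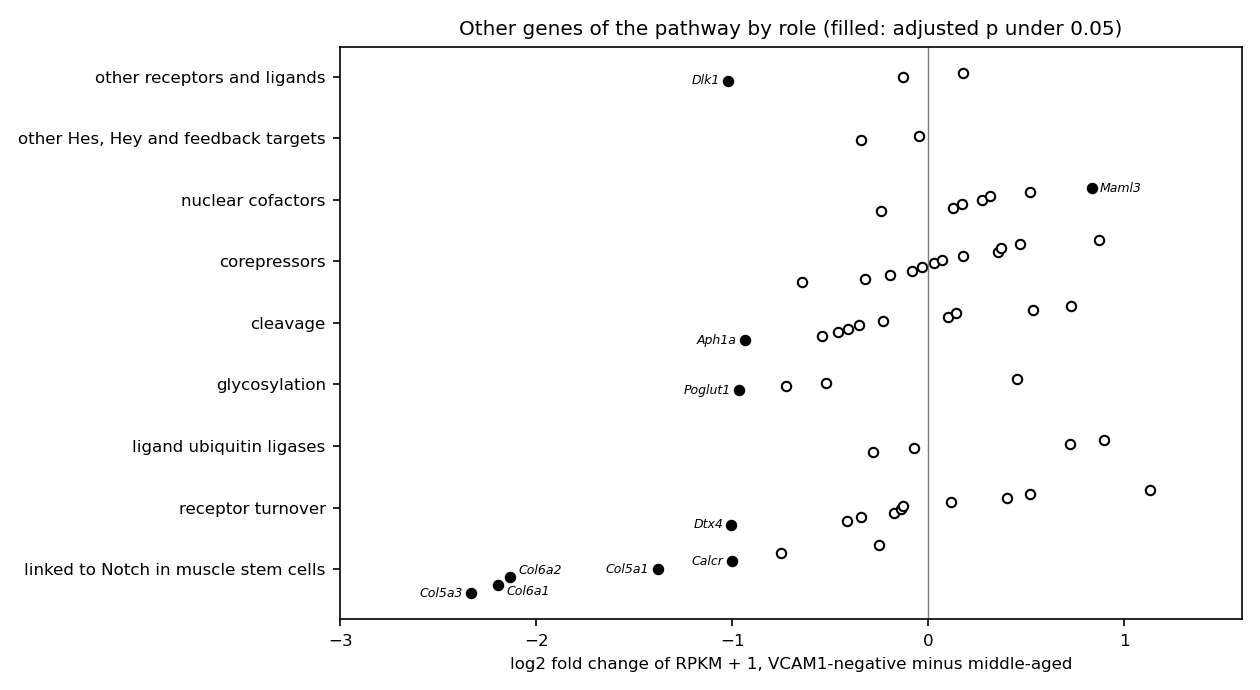
Log2 fold change of RPKM + 1, VCAM1-negative minus middle-aged (horizontal axis), of the 59 tested pathway genes by role group (vertical axis); filled points have an adjusted p under 0.05 and are named. The filled points are Maml3 at 0.83 to the right of 0 and 9 genes to the left of it, from Aph1a at -0.93 to Col5a3 at -2.33.

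The genes whose levels ran most like each member were taken by Pearson's r of log2(RPKM + 1) over the 11 libraries among 7513 genes that averaged at least 5 RPKM (7514 for Notch2), as a description. Notch3 ran most like Sdccag8 (r = 0.97), Clcn4 and Igf2r, and Notch1 most like Kat2a (0.97), Tsc2 and Vasp. Rbpj ran most like Cbll1 (0.98), Trmt10c and Mtf2, and Hes1 most like Mtf2 (0.99), Lin52 and Cth. Hey1 ran most like Col5a1 (0.94), 1 of the collagen genes that fell above, then Bmp1 and Ttc7b. Heyl ran most like Tcaf1 (0.97), Cd34, a surface protein of quiescent muscle stem cells in mice, and Ncoa1. For Notch2 the nearest were Arsa (0.90), Vcl and Numa1, for Hes6 Ciao1 (0.95), Exosc4 and Fam32a, for Dll1 Rce1 (0.89), Prickle3 and Ddx56, and for Jag1 Slc23a2 (0.87), Filip1l and Coch.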

How the data were processed

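RNA of sorted YFP+ limb muscle stem cells was amplified with SMART-Seq v4 and read from both ends on an Illumina HiSeq, per the labels' protocols. The authors deposited RPKM values for 20640 genes in 11 libraries. Build GRCm39 and the tools STAR 2.7.5b, Bowtie2 2.1.0, cutadapt 3.1 and SAMtools 0.1.19 are listed in the submitters' processing notes. What each did, the counter, annotation, gene lengths and use of strand: not given in the sources used here. Exons of Notch1, Notch3 and Dll1 overlap genes of the opposite strand and those of Notch2 a gene of the same strand in GENCODE M21, so reads of such pairs may be shared.

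The deposited values were put on the log2(RPKM + 1) scale and tested with limma 3.58.1 (R 4.3.3). A pseudocount understates changes of low genes. A single model held the means of the 4 groups over the 11 libraries and used a trend of variance on level, for the 11568 genes that reached 1 RPKM in 2 libraries or more, and p-values were adjusted by Benjamini-Hochberg over all of them. It was tested on simulated data first. VCAM1-low has 2 libraries and takes its spread from the other groups. The 7 comparisons are the 6 pairs of groups and the equal-weight mean of the 3 gates against middle-aged. Depth came from the low RPKM values (up to 0.1) in 3428 single-transcript genes: at the estimate 62.5% to 73.0% of them, by library, were whole reads to within 0.1, where chance gives 20%.

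Replicate numbers were taken to pair libraries where deviations from group means correlated above 0.1 in every pair. Same-numbered geriatric gates gave 0.40 to 0.58 in all 7 pairs, and VCAM1-high with middle-aged gave 0.21, 0.33 and 0.55. Since VCAM1-high replicate 1 correlated better with middle-aged replicate 2 (0.33) than with its own number (0.21), that pairing is uncertain. VCAM1-negative and VCAM1-low did not pair with middle-aged. The alternatives were another pseudocount, other filters, 2 scalings, no variance trend, the compared groups alone, the block and leaving out each library; those on the block without 1 library, on 2 libraries left out together, on the number as a tested term and on the pathway counts were added after the data were seen.

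The members, the pathway lists and the marker lists were chosen with earlier results of these data known. Genes were named by rule: all members, every pathway gene past the threshold (at most 12 per comparison), the most abundant gene of each role group, the 3 genes most like each member, and Vcam1 and Pax7. Promoter windows come from RefSeq (GRCm38.p6), whose coordinates are not those of the authors' build.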

Additional observations from a re-analysis of the deposited data

How the results depend on the processing

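Of the 15 member results that passed in the reported fit or under an alternative not added later, none changed direction in 460 values under the alternatives: 348 stayed on their side of the threshold, 31 no longer passed and 81 passed where the reported fit did not. The other 55 of the 70 member results passed in none of these, and 35 of them changed sign in some alternative. The kept direction of the 15 says little, since they were picked for passing. Some alternatives, such as another filter or no variance trend, cannot change a fold change at all. Without a filter on low values none of the 10 genes passed for VCAM1-negative against middle-aged (reported 2), with an adjusted p of 0.0512 for Hes1 and 0.0799 for Rbpj, and Hey1 no longer passed in the mean of gates (0.0899). It did not pass there with an equal sum per library either (0.0627). For VCAM1-low against middle-aged (reported 0) the count was 1 with a pseudocount of 0.1, 1 with a mean of 5 RPKM or more, 1 with an equal sum, 1 with median ratio scaling and 3 with the compared groups alone. Leaving out 1 library gave 0 to 3 calls for VCAM1-negative, 0 to 1 for VCAM1-low, 0 for VCAM1-high and 0 to 5 for the mean of gates, each against middle-aged, and 0 between gates. The share of all genes that passed also changed with the setting and is not given for these counts. They therefore show nothing particular to the 10 genes. Without replicate 3 of both middle-aged and VCAM1-high, 1 gene, Hes1, passed for VCAM1-negative (adjusted p = 0.0339). The cause of these changes was not tested.

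With the replicate number as a block in 11 libraries the count was 2 for VCAM1-high (reported 0), where 6.98% of all genes passed. For the groups not taken as paired by number, it was 4 for VCAM1-negative (Hes1, Rbpj, Hey1 and Notch3), 3 for VCAM1-low and 5 for the mean of gates. In these, 31.6%, 15.8% and 30.9% of all genes passed. Neither VCAM1-negative nor VCAM1-high libraries each correlated best with their own number among the middle-aged ones (-0.02 and 0.21 for number 1). In the blocked fit leaving out 1 library gave 0 to 3 calls for VCAM1-high, 2 to 6 for VCAM1-negative, 0 to 5 for VCAM1-low and 2 to 6 for the mean of gates, and in the 8 geriatric libraries 0 to 3 for VCAM1-negative against VCAM1-high. These counts too stand here without the share of all genes at each omission, and show nothing particular to the 10 genes. The block changed no call of a member between gates. The median of all genes moved by less than 0.1 on the log2 scale under both rescalings in all 7 comparisons. The receptor shares moved by less than 1 SD without Notch4 and, in groups of 3, without 1 library. Leaving out 1 of 3 libraries cannot move a mean by 1 SD, so that omission tests nothing. VCAM1-low, with 2 libraries, had no such omission. Without a filter on low values 1 pathway gene passed for VCAM1-negative against middle-aged, against 10 of 59 reported. The low values limit Notch4, Dlk1 and Maml3, where the pseudocount weighs on the fold change.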
